A study of Homo sapiens with 6 samples.

Results

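Receptor tyrosine kinases are surface proteins that turn the binding of a growth factor into phosphorylation inside the cell. 10 of their genes were followed, taken by symbol from a list drawn up with earlier results of these data known, out of 58395 genes in the deposited table: EGFR, ERBB2, ERBB3, MET, AXL, IGF1R, FGFR1, KIT, PDGFRA and PDGFRB. Each of the 10 symbols matched 1 Ensembl gene. The samples were 3 CD20+ and 3 CD20- libraries of M14, an established human melanoma cell line. Both fractions came from the same kind of culture, in which M14 cells grew off the plastic as melanospheres, clumps that float in the medium. These were broken up mechanically and sorted by flow cytometry on an antibody to CD20, a membrane protein of B cells and the product of MS4A1. No drug and no genetic change separated the groups, and all 6 libraries came from 1 cell line. Whether replicates 1 to 3 are separate cultures is not stated in the labels, and the p-values therefore cover the spread among these samples alone, which could be technical.

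Each receptor has an extracellular part, which in most of them binds ligand, a single membrane span and an intracellular kinase. In most of them binding brings receptor chains together, and the kinases phosphorylate each other's tails. Adaptor proteins that dock there switch on the RAS-MAPK and PI3K-AKT pathways. In the melanocyte lineage, KIT is the receptor on which melanoblasts depend and is regulated with the lineage factors MITF and SOX10, while AXL, EGFR and PDGFRB are known from melanoma cells that have lost those lineage factors. ERBB3 has little kinase activity of its own and signals through a partner, mostly ERBB2, which in turn has no known ligand.

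Proximal promoters of 4 receptors are shown because they cover the range of the measured levels: EGFR, among the highest, ERBB2, the receptor whose groups did not overlap, PDGFRB, the receptor that differed most between replicate numbers, and KIT, which had almost no reads. The windows searched are the 250 bases before a RefSeq transcript start (GRCh38.p14), and each run below is the stretch of such a window that lies before the gene's first base in GENCODE 29, 5′ to 3′ on the strand of the gene. Capitals mark 3 motifs, searched on both strands, so that a match may read as the reverse complement. The first is the GC box, GGGCGG. The second is the CCAAT box, spelled as its name. The third is the AP-1 motif, TGANTCA. No match overlapped another in these runs.
EGFR, chr7:55018767-55019016, plus strand: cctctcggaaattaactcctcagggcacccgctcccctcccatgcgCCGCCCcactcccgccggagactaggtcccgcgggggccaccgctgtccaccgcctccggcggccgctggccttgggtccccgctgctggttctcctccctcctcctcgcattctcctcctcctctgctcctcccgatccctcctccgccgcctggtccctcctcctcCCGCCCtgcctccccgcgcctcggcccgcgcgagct
ERBB2, chr17:39687844-39687913, plus strand: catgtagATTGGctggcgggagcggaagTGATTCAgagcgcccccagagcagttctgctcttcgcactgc
PDGFRB, chr5:150155873-150156095, minus strand: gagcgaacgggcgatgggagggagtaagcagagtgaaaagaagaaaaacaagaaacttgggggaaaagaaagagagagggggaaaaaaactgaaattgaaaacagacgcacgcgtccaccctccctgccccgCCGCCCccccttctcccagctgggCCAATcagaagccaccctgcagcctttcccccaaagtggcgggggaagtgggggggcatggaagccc
KIT, chr4:54657707-54657917, plus strand: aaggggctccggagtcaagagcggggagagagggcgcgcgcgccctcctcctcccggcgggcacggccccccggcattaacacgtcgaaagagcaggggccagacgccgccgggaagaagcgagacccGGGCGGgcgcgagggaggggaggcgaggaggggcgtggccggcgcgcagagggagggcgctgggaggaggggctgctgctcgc
A GC box stood in 42.6% of all 34788 promoter windows of this length, a CCAAT box in 32% and an AP-1 motif in 6.59%. The EGFR window held 2 GC boxes and the KIT window 1, so this motif occurred beside a transcribed and beside a nearly silent gene. The ERBB2 window held no GC box but 1 CCAAT box and 1 AP-1 motif, and the PDGFRB window held 1 GC box and 1 CCAAT box. The KIT window had 76.4% G and C and 34 CpG sites, the EGFR window 73.6% and 25, the ERBB2 window 65.6% and 23, and the PDGFRB window 58.4% and 9, against a median of 58% and 11 CpG sites over all windows. A second EGFR window, at chr7:55109589-55109838, held 2 AP-1 motifs. The windows of IGF1R, MET and the upstream start of AXL held 2 GC boxes each. So did a window of PDGFRA, a gene with almost no reads, at chr4:54233710-54233959, with 1 CCAAT box. The PDGFRA window upstream of that one held no GC box.

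Levels are in FPKM (fragments divided by exon length and by library size) and correspond to between 15651172 and 17915936 fragments per library. MS4A1 measured 1.24, 0.966 and 1.28 FPKM in the CD20+ libraries of replicates 1, 2 and 3, against 0.225, 0.263 and 0.403 FPKM in the CD20- libraries, so the sorted antigen followed the labels. Mitochondrially encoded genes took 11.9 to 20.6% of the fragments in CD20+ libraries and 4.25 to 5.73% in CD20- libraries, and ribosomal protein genes 2.60 to 4.18% against 6.59 to 6.85%. The defining melanocyte markers SOX10, MLANA, TYR, TYRP1 and DCT averaged under 1 FPKM in both groups, and 2 of the 7 markers, PMEL and MITF, averaged at least 1 FPKM. PMEL, a melanosome protein, averaged 26.1 FPKM in CD20+ and 14.96 FPKM in CD20- libraries and rose with the replicate block (limma, adjusted p = 0.0117, against 0.613 without the block). Of 6 epithelial markers, KRT8 and KRT18 averaged 227 and 193 FPKM in CD20+ libraries and 198 and 181 FPKM in CD20- libraries, and EPCAM 3.81 and 3.72 FPKM, while CDH1, KRT5 and KRT14 averaged under 0.1 FPKM in both groups. 5 of the 7 markers of the melanocyte lineage were thus near 0. Summed over a list of 7 fibroblast and mural cell markers the level was 34.1 to 42.4 FPKM in CD20+ and 24.8 to 27.8 FPKM in CD20- libraries, nearly all of it COL1A1, and the mural marker RGS5 averaged 0.356 and 0.402 FPKM. The 7 B-cell markers summed to 4.60 to 4.89 FPKM in CD20+ and 2.36 to 3.64 FPKM in CD20- libraries, with CR2 at 0 in all. That list includes MS4A1, the gene of the sorted antigen, so a part of its difference is set by the sort. The 3 endothelial markers summed to 1.51 to 1.86 FPKM in CD20+ and 0.979 to 1.35 FPKM in CD20- libraries. The part of these markers in the results below was not tested.

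8 of the 10 receptors were transcribed at a mean of 1 FPKM or more, the level needed to enter the test across genes, while KIT and PDGFRA lay near 0. Summed over the 10, the level was 97.0, 85.7 and 86.8 FPKM in the CD20+ libraries and 82.9, 67.3 and 65.8 FPKM in the CD20- libraries. IGF1R stood highest in both groups, followed by AXL, EGFR and FGFR1, and the ranges of neighbours among these 4 overlapped in both groups. ERBB2 came next, and its range did not overlap that of FGFR1 in either group. In CD20+ libraries PDGFRB, ERBB3 and MET followed, and in CD20- libraries MET, ERBB3 and PDGFRB, again with overlapping neighbours. Among the 13155 tested genes the mean level of IGF1R stood at percentile 76.7 and that of PDGFRB, the lowest of the 8, at percentile 44.3. In bulk RNA, fewer cells that carry a transcript and less of it per cell cannot be told apart.

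**Figure D1:**
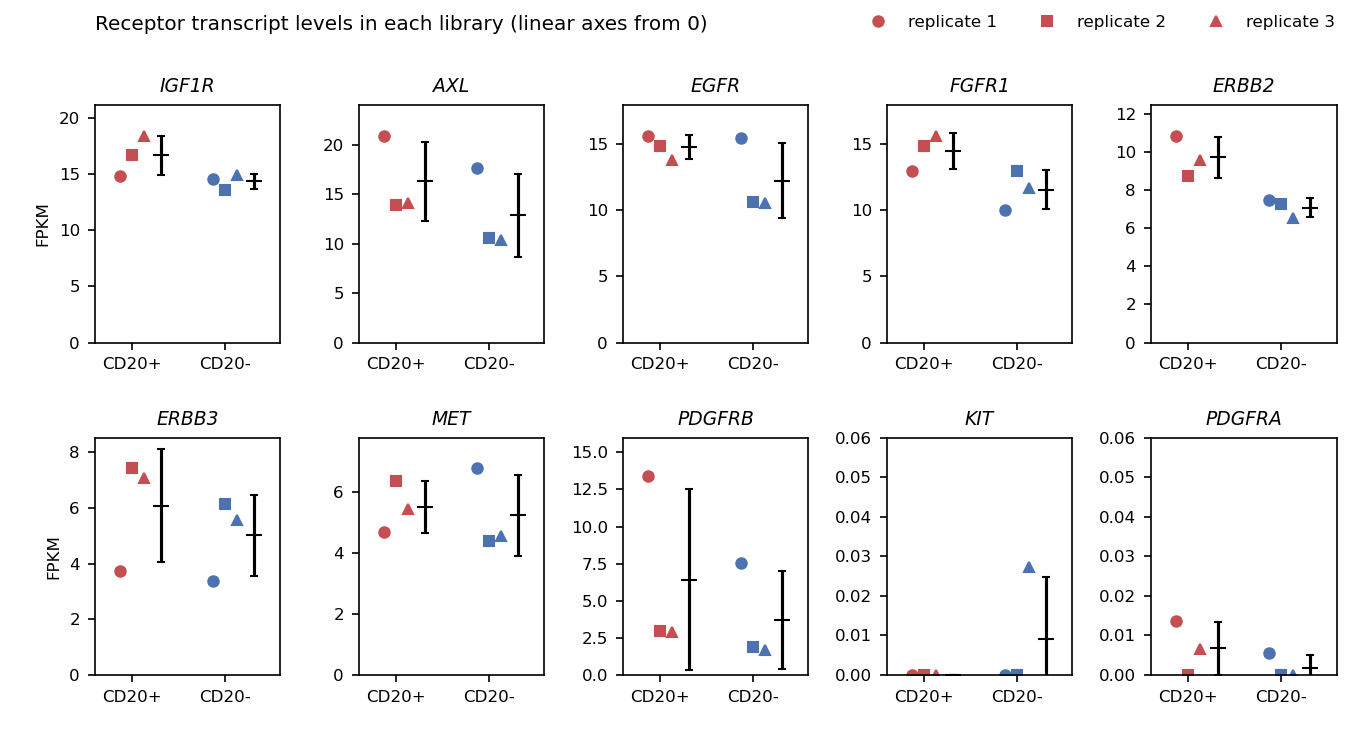
FPKM of each receptor in the 3 CD20+ and 3 CD20- libraries, 1 point per library with its shape giving the replicate number, beside the mean and SD (n = 3, bars cut at 0). The axis of each panel starts at 0 and differs between receptors. ERBB2 is the one whose groups do not overlap, PDGFRB reaches 13.4 and 7.54 FPKM in replicate 1 only, and KIT and PDGFRA stay under 0.03 FPKM.

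No receptor passed the test between the groups without use of the replicate numbers, and 1, PDGFRB, rose in CD20+ libraries when libraries of the same number were paired. ERBB2 was higher in each CD20+ library than in any CD20- library. 7 of the 8 tested receptors were higher in the CD20+ library of all 3 pairs, MET being the exception, by factors of at most 1.78. The test was limma on log2(FPKM + 1) with Benjamini-Hochberg adjustment over all 13155 genes and a threshold of 0.05. Without the replicate block it called 0 of the 8 receptors, where it called 0.0076% of all tested genes (1 gene, MT-TE). At an unadjusted p under 0.05 it had 1 of the 8 receptors, ERBB2, and 1210 of the 13155 genes. Under the same limit with the block it had 4 of the 8 receptors (AXL, FGFR1, ERBB2 and PDGFRB) and 2808 of the 13155 genes. With the replicate block it called 1 receptor higher and 0 lower, where it called 3.19% of the tested genes higher and 2.64% lower. Groups that did not overlap, with CD20+ higher, were seen in 1 of the 8 receptors and in 8.87% of the tested genes. The share that was higher in all 3 pairs was 7 of 8 among the receptors and 21.8% among the tested genes. The median log2 change of the 8 receptors was 0.29, against 0.00 over all tested genes.

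**Figure D2:**
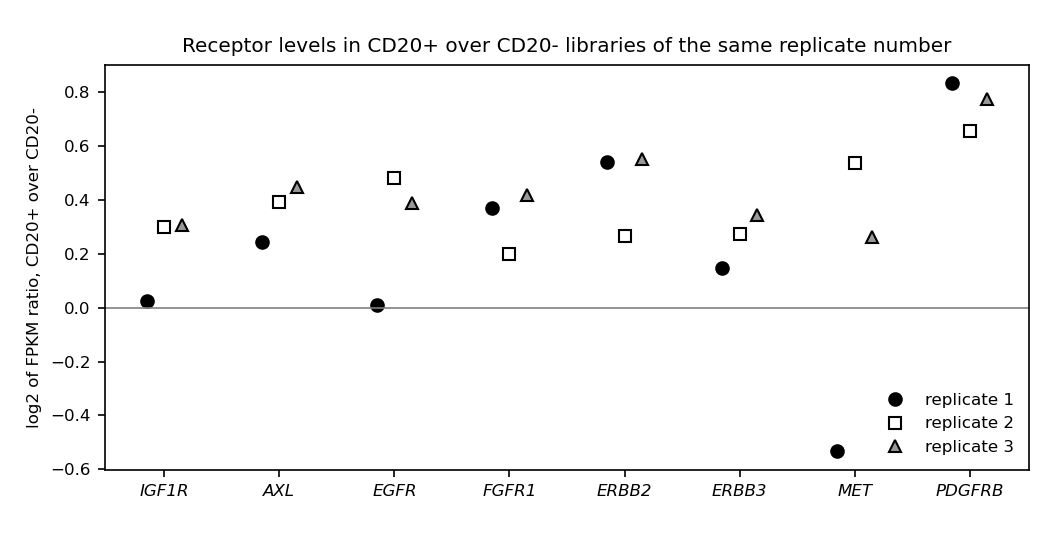
Level of each tested receptor in the CD20+ over the CD20- library of the same replicate number, on a log2 scale, 1 point per pair. Points above the line are higher in CD20+, which holds for every pair of 7 receptors and for 2 of the 3 pairs of MET. Under scaling to the FPKM total, 7 of the 8 mean changes turn below 0.

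EGFR, the receptor of EGF and TGFA (ENSG00000146648, GRCh38 chromosome 7, 55019021 to 55211628), measured 15.6, 14.8 and 13.8 FPKM in CD20+ libraries and 15.5, 10.6 and 10.5 FPKM in CD20- libraries of replicates 1, 2 and 3. The CD20+ libraries lay close together, and the CD20- library of replicate 1 was as high as they were, so the groups overlapped. The log2 change was 0.27 ± 0.17 (SE, limma, adjusted p = 0.666), with a 95% interval of -0.14 to 0.68, and was 0.44 without CD20- replicate 1. The ratio within a pair was 1.01, 1.40 and 1.31. These values rest on 2369 to 3638 fragments per library, so counting error is small beside the spread between libraries.

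ERBB2, the preferred partner of the other EGFR family receptors (ENSG00000141736, chromosome 17, 39687914 to 39730426), measured 10.8, 8.72 and 9.57 FPKM in CD20+ libraries and 7.45, 7.26 and 6.53 FPKM in CD20- libraries. The lowest CD20+ library lay above the highest CD20- library, with 1443 to 1689 fragments in CD20+ and 1334 to 1445 in CD20- libraries. The mean was 9.71 ± 1.06 FPKM in CD20+ and 7.08 ± 0.483 FPKM in CD20- libraries (SD, n = 3), a ratio of 1.37 (exact permutation test, two-sided, p = 0.1, and no lower p is possible with 3 libraries a group). The log2 change of 0.40 ± 0.13 (SE) did not pass over all genes (limma, adjusted p = 0.451, and 0.102 with the replicate block), and its 95% interval was 0.09 to 0.72. ERBB2 shares 571 exon bases (5.53% of its exons) with MIEN1 on the other strand, and the sources used here do not give whether counting used strand, so a part of its reads could belong to that gene. GRB7, an adaptor that binds ERBB2, lies on the same chromosome at 39737927 to 39747291. It measured 2.78, 2.64 and 3.97 FPKM in CD20+ and 1.64, 2.42 and 1.76 FPKM in CD20- libraries, again with no overlap. It fell short of the threshold (log2 change 0.49, limma, adjusted p = 0.4995). With voom and the block its adjusted p was 0.0121, but that setting gives a gene's own spread almost no weight.

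ERBB3, the receptor of neuregulins (ENSG00000065361, chromosome 12, 56076799 to 56103505), measured 3.74, 7.42 and 7.07 FPKM in CD20+ libraries and 3.38, 6.13 and 5.56 FPKM in CD20- libraries. Replicate 1 was the low library in both groups, and the groups overlapped. Its log2 change was 0.22 ± 0.28 (SE, limma, adjusted p = 0.847), with pair ratios of 1.11, 1.21 and 1.27. It was 0.00 without CD20- replicate 1 and 0.48 without CD20+ replicate 1. The sum of EGFR, ERBB2 and ERBB3 was 30.1, 31.0 and 30.4 FPKM in CD20+ and 26.3, 24.0 and 22.6 FPKM in CD20- libraries.

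IGF1R, the receptor of insulin-like growth factors (ENSG00000140443, chromosome 15, 98648539 to 98964530), measured 14.8, 16.7 and 18.4 FPKM in CD20+ libraries and 14.6, 13.5 and 14.9 FPKM in CD20- libraries. The groups overlapped because replicate 1 of CD20+ and replicate 3 of CD20- were nearly equal. Its log2 change was 0.20 ± 0.13 (SE, limma, adjusted p = 0.682, 95% interval -0.12 to 0.51). FGFR1, a receptor of fibroblast growth factors (ENSG00000077782, chromosome 8, 38400215 to 38468834), measured 12.9, 14.8 and 15.6 FPKM in CD20+ libraries and 10.01, 12.9 and 11.6 FPKM in CD20- libraries. Only replicate 1 of CD20+ and replicate 2 of CD20- met, at nearly the same level. The log2 change was 0.31 ± 0.15 (SE, limma, adjusted p = 0.588, 95% interval -0.04 to 0.65), and the pair ratios were 1.29, 1.148 and 1.34.

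AXL, the receptor of GAS6 (ENSG00000167601, chromosome 19, 41219203 to 41261766), measured 20.9, 13.9 and 14.1 FPKM in CD20+ libraries and 17.7, 10.6 and 10.3 FPKM in CD20- libraries. Replicate 1 was the high library in both groups, and within each pair CD20+ was higher, by ratios of 1.18, 1.31 and 1.37. Its log2 change of 0.34 had an SE of 0.25 without and 0.13 with the replicate block (limma, adjusted p = 0.716 and 0.168), and the change was 0.15 without CD20+ replicate 1 and 0.57 without CD20- replicate 1. MET, the receptor of hepatocyte growth factor (ENSG00000105976, chromosome 7, 116672390 to 116798386), measured 4.68, 6.38 and 5.46 FPKM in CD20+ libraries and 6.78, 4.398 and 4.56 FPKM in CD20- libraries. It was lower in CD20+ in pair 1, at a ratio of 0.691, and higher in pairs 2 and 3, at 1.45 and 1.20. The log2 change of 0.07 ± 0.19 (SE, limma, adjusted p = 0.936) had a 95% interval of -0.37 to 0.51, and it turned to -0.12 without both libraries of replicate 2.

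PDGFRB, a receptor of platelet-derived growth factors that is best known from pericytes and other mesenchymal cells (ENSG00000113721, chromosome 5, 150113837 to 150155872), measured 13.4, 2.95 and 2.91 FPKM in CD20+ libraries and 7.54, 1.87 and 1.70 FPKM in CD20- libraries of replicates 1, 2 and 3. The levels fell into 2 ranges by replicate number rather than by sort, and within each number the CD20+ library was higher, by ratios of 1.78, 1.57 and 1.71. These values rest on 1449, 337 and 328 fragments in CD20+ and 1012, 238 and 240 fragments in CD20- libraries. Its log2 change of 0.58 had an SE of 0.63 without the replicate block (limma, adjusted p = 0.812) and of 0.13 with it, where PDGFRB rose in CD20+ libraries (adjusted p = 0.0286, 95% interval 0.29 to 0.88, adjusted p of 0.000346 to 1 over all settings run). With the block the call was lost without both libraries of replicate 2 (0.65, adjusted p = 0.109), without both of replicate 3 (0.61, adjusted p = 0.126) and under scaling to the FPKM total (0.17, adjusted p = 0.507). Without both libraries of replicate 1 the change was 0.50 (limma, adjusted p = 0.0384, and 0.0422 with the block). Those 2 fits called 1813 and 2141 genes. The paired fit on all libraries takes most of its spread from other genes, with 10.2 prior degrees of freedom beside 2 of the gene itself. Without replicate 1 that prior was infinite for 90.28% of genes. With voom and the block, where PDGFRB had 0.000346, its median was 82400. In these 2 settings a gene's own spread had almost no weight.

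PDGFRB differed more between replicate numbers than between the sorted groups. In replicate 1 it stood at 4.59 times the mean of replicates 2 and 3 in CD20+ libraries and at 4.23 times in CD20- libraries, and 17 of the 13155 tested genes, PDGFRB included, reached as high a ratio in both groups, a count made after its values were seen. AXL stood at 1.49 and 1.69 times and ERBB3 at 0.517 and 0.578 times, a ratio that 685 tested genes matched or went below in both groups. ERBB2 stood at 1.18 and 1.08 times, IGF1R at 0.847 and 1.03 and FGFR1 at 0.849 and 0.814, so these 3 lay closer to 1. EGFR stood at 1.09 times in CD20+ and 1.46 times in CD20- libraries, and MET at 0.791 and 1.51. No label describes what sets replicate 1 apart.

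**Figure D3:**
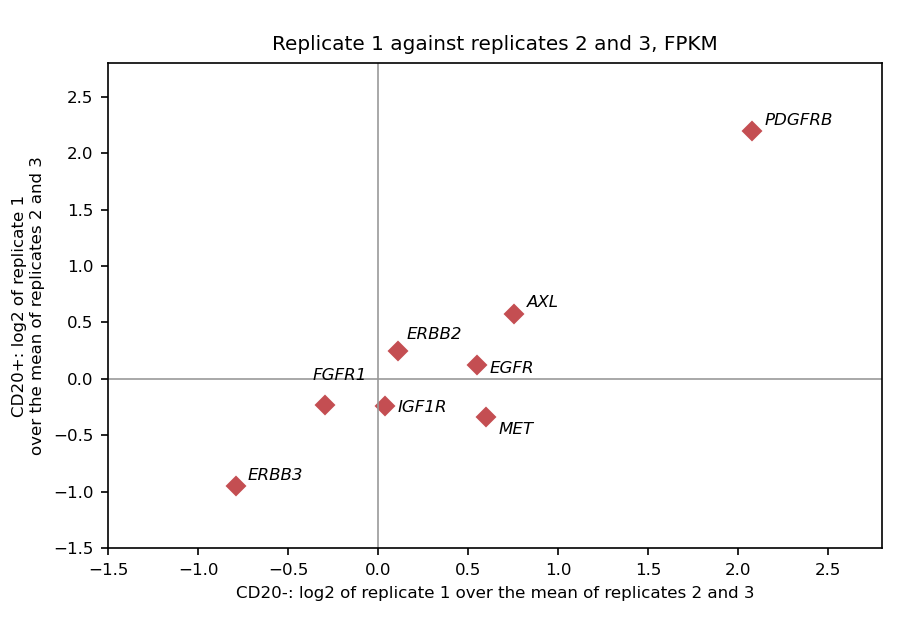
Level of each tested receptor in replicate 1 over the mean of replicates 2 and 3, on log2 scales, with CD20+ on the vertical and CD20- on the horizontal axis. PDGFRB lies far up in both groups (4.59 and 4.23 times), AXL above 0 in both and ERBB3 below 0 in both (0.517 and 0.578 times).

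KIT, the receptor of stem cell factor (ENSG00000157404, chromosome 4, 54657918 to 54740715), had 0 fragments in each CD20+ library and 0, 0 and 3 fragments in the CD20- libraries. At this depth 0 fragments allow up to 3, that is 0.0273 to 0.0357 FPKM by library, so the groups cannot be told apart. PDGFRA, the receptor closest to PDGFRB and KIT in family (ENSG00000134853, chromosome 4, 54229097 to 54298247), had 2, 0 and 1 fragments in CD20+ and 1, 0 and 0 fragments in CD20- libraries. PDGFRA shares 1533 exon bases (15.8% of its exons) on the same strand with ENSG00000282278, which had 0 FPKM. How reads in shared bases were counted is not described, so some reads of PDGFRA could be missing. KIT and PDGFRA both lay under the level needed for the test, and no difference is read from them. The ligand of KIT, KITLG, was transcribed, at 3.47, 3.15 and 3.06 FPKM in CD20+ and 3.47, 3.62 and 4.11 FPKM in CD20- libraries (log2 change -0.16, limma, adjusted p = 0.725, and 0.047 with the block under the FPKM total). That last setting called 3923 genes, 90 of them higher in CD20+.

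**Figure D4:**
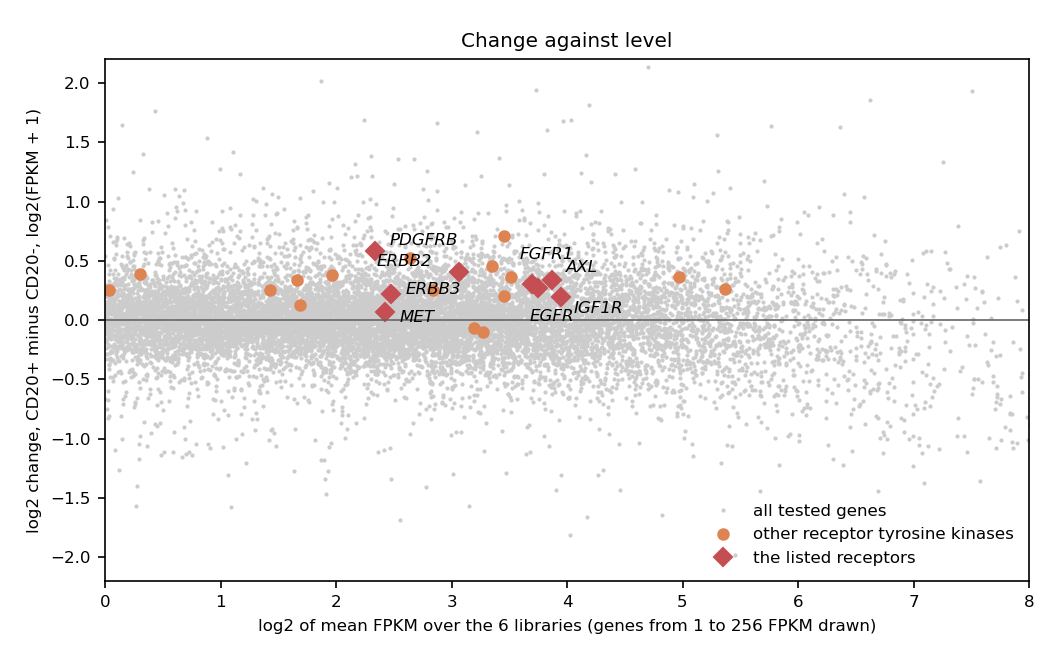
Change between CD20+ and CD20- libraries against mean level for the tested genes (grey), the 8 tested receptors (red) and 16 other receptor tyrosine kinases (orange), genes outside the axes not drawn. The 8 receptors lie above 0 on this scaling, at log2 changes of 0.07 to 0.58, among many genes of like change, and 7 of them fall below 0 under scaling to the FPKM total.

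The direction of these changes depends on how libraries are scaled to each other. Scaling every library to the same FPKM total put the median over all tested genes at -0.41, and 7 of the 8 receptors then had changes below 0, from -0.06 for ERBB2 to -0.36 for MET, with PDGFRB at 0.17. Relative to that median the 8 receptors stood higher, by 0.05 for MET to 0.58 for PDGFRB. The FPKM total itself was 338130 to 512110 in CD20+ and 276910 to 295180 in CD20- libraries and includes the mitochondrially encoded genes. Scaling to the total without those genes gave receptor changes above 0, from 0.03 for MET to 0.53 for PDGFRB. The receptors also have long transcripts: 7 of the 8 lie in the group of longest genes when the tested genes are split into 4 by exon length, where the median change was 0.03 and 9.50% of genes had CD20+ wholly above CD20-. From the shortest group up, the other 3 had medians of -0.08, -0.01 and 0.02 and shares of 5.48, 9.04 and 11.5%, so the share was highest in the third group, which holds AXL. The part of transcript length in these changes was not tested.

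**Figure D5:**
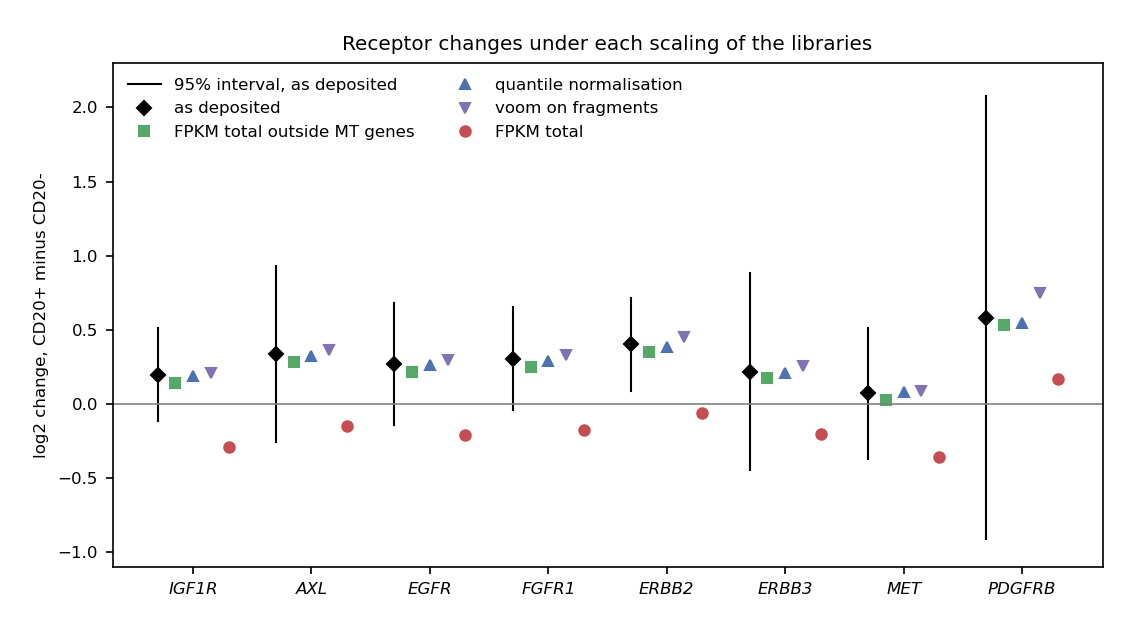
log2 change of each tested receptor under 4 scalings of the libraries and with voom on recovered fragments; vertical lines give the 95% interval of the limma fit on the values as deposited. Scaling to the FPKM total puts 7 receptors below 0, and the other settings keep all 8 above 0. Without the replicate block, as drawn, only the interval of ERBB2 (0.09 to 0.72) is clear of 0. With the block, not drawn, those of AXL, FGFR1 and PDGFRB are clear of 0 as well.

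The other 48 receptor tyrosine kinases of the human genome were read beside these, to place the 10 in their family. 16 of the 48 reached the test, and 25 averaged under 0.1 FPKM. FGFR4, a receptor of fibroblast growth factors, was the highest of all, at 43.3, 41.5 and 50.2 FPKM in CD20+ and 33.5, 42.5 and 36.2 FPKM in CD20- libraries, and EPHB4, an ephrin receptor, followed at 43.0, 31.0 and 32.3 FPKM against 28.4, 28.5 and 24.4 FPKM, so both exceeded IGF1R. Neither passed the test (limma, adjusted p = 0.657 and 0.577). With the replicate block 2 of the 16 rose and 14 were not called, where 3.19% of all tested genes rose and 2.64% fell. Without it 0 of the 16 were called. MST1R, the receptor closest to MET, measured 11.2, 13.8 and 16.6 FPKM in CD20+ and 6.68, 9.84 and 7.73 FPKM in CD20- libraries (log2 change 0.71, limma, adjusted p = 0.0184 with the replicate block and 0.357 without). PTK7, a pseudokinase of WNT signalling, had 6.87, 7.08 and 8.67 FPKM against 4.32, 5.66 and 4.82 FPKM (0.53, adjusted p = 0.0472 with the block and 0.359 without). With the block, both calls were lost under scaling to the FPKM total (0.24 and 0.09, adjusted p = 0.341 and 0.744), without both libraries of replicate 2 (adjusted p = 0.0916 and 0.106) and without both of replicate 3 (0.235 and 0.509). ROR2, a WNT5A receptor, differed by 0.36 without a call (limma, adjusted p = 0.493). Of the 16, 9 had groups that did not overlap with CD20+ higher, against 8.87% of all tested genes, and their median change was 0.30, or -0.11 under scaling to the FPKM total. The 10 receptors made up 34.3, 32.7 and 30.7% of the summed FPKM of all 58 in CD20+ libraries and 36.7, 30.0 and 31.4% in CD20- libraries.

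Of the 29 listed ligands of the 10 receptors, 10 reached the test. Without the replicate block 0 were called, and with it 2 rose, 0 fell and 8 were not called. Over all tested genes the block called 3.19% higher and 2.64% lower. PDGFB, a chain that binds PDGFRB, measured 2.11, 3.63 and 5.33 FPKM in CD20+ and 1.16, 1.07 and 1.51 FPKM in CD20- libraries, a ratio of 2.96 with no overlap (log2 change 1.01, limma, adjusted p = 0.00866 with the block and 0.343 without). Its level did not follow that of PDGFRB over the replicate numbers, replicate 1 being the lowest CD20+ library for the ligand and the highest for the receptor. GAS6, the ligand of AXL, measured 7.04, 7.18 and 11.1 FPKM in CD20+ and 3.40, 5.87 and 6.10 FPKM in CD20- libraries (0.63, adjusted p = 0.0329 with the block and 0.518 without). The call of PDGFB was lost in the blocked fit without replicate 2 (adjusted p = 0.12), and that of GAS6 without replicate 2, without replicate 3 and under the FPKM total (adjusted p = 0.0845, 0.2 and 0.461). HBEGF, a ligand of EGFR, went the other way without a call (2.54 ± 0.367 FPKM in CD20+ and 3.04 ± 0.372 FPKM in CD20- libraries, SD, n = 3; limma, adjusted p = 0.716, and 0.0385 with the block under the FPKM total). The block under the FPKM total called 3923 genes, 90 of them higher in CD20+. On the values as deposited the median change of the 10 tested ligands was 0.00, as over all tested genes.

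IGF binding proteins hold insulin-like growth factors outside the cell and so modulate IGF1R. 6 of 7 were tested, with a median change of 0.53, and with the block 2 rose and 4 were not called, against 0 called without it. For these and the proteases below, the share over all tested genes with the block was 3.19% higher and 2.64% lower. IGFBP5 averaged 3.63 ± 1.13 FPKM in CD20+ and 2.06 ± 0.930 FPKM in CD20- libraries (SD, n = 3; log2 change 0.61, limma, adjusted p = 0.0230 with the block and 0.568 without). IGFBP3, named after its values were seen, measured 6.78, 64.9 and 79.0 FPKM in CD20+ and 4.66, 21.5 and 28.7 FPKM in CD20- libraries (1.147, adjusted p = 0.0256 with the block and 0.753 without), so it was low in replicate 1 of both groups. Its change was 2.22 without CD20+ replicate 1 and 0.42 without CD20- replicate 1, and its call was lost in the blocked fit without replicate 2 (adjusted p = 0.144) and under the FPKM total (0.0811). That of IGFBP5 was lost without replicate 2, without replicate 3 and under the FPKM total (adjusted p = 0.129, 0.0646 and 0.299). IGFBP7 had the opposite order, at 235, 46.3 and 41.7 FPKM in CD20+ and 163, 38.3 and 32.1 FPKM in CD20- libraries, without a call (adjusted p = 0.182 with the block and 0.919 without). IGFBP6 differed by 0.45 without a call in either fit (limma, adjusted p = 0.0937 with the block and 0.543 without). It was called with the block at a filter of 10 FPKM (adjusted p = 0.0362) and with voom and the block (0.0365). Both of those settings give a gene's own spread almost no weight. Among 9 proteases that release or activate ligands, 7 were tested and 1 was called, with the block only: PLAT, tissue plasminogen activator, which can activate PDGF ligands, at 22.1, 17.6 and 22.3 FPKM in CD20+ and 14.5, 12.8 and 11.1 FPKM in CD20- libraries (0.65, limma, adjusted p = 0.0256 with the block and 0.302 without). With the block that call was lost without replicate 2, without replicate 3 and under the FPKM total (adjusted p = 0.102, 0.345 and 0.496). ADAM15, a membrane metalloprotease, differed by 0.38 (limma, adjusted p = 0.648).

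Genes that act on or after the receptors showed no call in the fit on the values as deposited, with or without the block. Over all tested genes the block called 3.19% higher and 2.64% lower, and the fit without it called 0.0076%. 26 of 29 adaptors and effectors were tested, with a median change of 0.01. SHC1 and GRB2, the adaptors that link receptors to RAS, measured 47.2 ± 6.27 and 40.4 ± 8.37 FPKM in CD20+ and 46.4 ± 2.66 and 42.1 ± 3.99 FPKM in CD20- libraries (SD, n = 3; limma, adjusted p = 0.982 and 0.935). PTPN11, the SHP2 phosphatase that most of these receptors need for full MAPK signalling, measured 21.0, 25.1 and 20.8 FPKM in CD20+ and 31.2, 27.9 and 28.4 FPKM in CD20- libraries, and the SRC family kinase YES1 12.04, 12.1 and 9.64 FPKM against 16.9, 14.3 and 14.8 FPKM. Both were named for a small p. They had groups that did not overlap, with CD20+ lower, and did not pass (log2 changes of -0.38 and -0.42, limma, adjusted p = 0.503 and 0.480). The share of all tested genes with CD20+ wholly below CD20- was not counted. Other settings called both: under the FPKM total the changes were -0.87 and -0.90 (adjusted p = 0.0468 and 0.04, and 0.00438 and 0.00467 with the block), and YES1 was also called with the block at a filter of 10 FPKM (0.0335) and with voom and the block (0.0434). Under the FPKM total the median over all tested genes was itself -0.41. That scaling called 1382 genes, 28 of them higher in CD20+, and with the block 3923 genes, 90 of them higher. Of 27 negative regulators 23 were tested, with a median of 0.07, and IGF2R, which clears IGF2 from the surface, measured 16.03, 15.3 and 14.2 FPKM in CD20+ and 10.9, 10.6 and 11.5 FPKM in CD20- libraries (0.43, limma, adjusted p = 0.359), and was called with the block at a filter of 10 FPKM (0.028) and with voom and the block (0.0307). With the block at a filter of 10 FPKM the prior degrees of freedom were infinite for 93.4% of genes. With voom and the block their median was 82400. A gene's own spread therefore had almost no weight in these 2 settings. All 21 genes of receptor endocytosis and recycling were tested, with a median of -0.06. Of 17 transcription factors tied to receptor states in melanoma 12 were tested, with a median of -0.04. MITF averaged 2.04 ± 0.279 FPKM in CD20+ and 2.19 ± 0.138 FPKM in CD20- libraries (SD, n = 3; limma, adjusted p = 0.905), and YAP1, a coactivator of the Hippo pathway, 27.2 ± 3.31 and 30.0 ± 1.07 FPKM (adjusted p = 0.796).

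The genes whose pattern over the 6 libraries was most like that of the 2 highest receptors were taken from 4203 protein-coding genes that averaged 10 FPKM or more, by the root-mean-square difference of their deviations from their own mean on the log2(FPKM + 1) scale. For IGF1R these were RBM3, ATP2C1 and SFPQ, at 0.0428, 0.0443 and 0.0602. For AXL they were LGMN, MFAP5 and NDUFB9, at 0.0602, 0.0677 and 0.0790. With 6 libraries many genes share a pattern, and the likeness is given as a description.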

How the data were processed

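The header of the deposited table names no unit, and it was read from the values: times exon length in GENCODE release 29, they fell on whole multiples of a constant of the library for 98.1 to 98.6% of values up to 20 fragments (tolerance 0.02). The values deposited by the authors are therefore FPKM, scaled between libraries by a library size of the authors' own. The submitters' processing notes name HISAT2, featureCounts 1.5.0, DESeq2 and GRCh38 (hg38), per the labels; their settings and the use of strand are not described there. Per the labels' protocols, an Illumina TruSeq RNA kit was used on polyadenylated RNA. Fragments were recovered from that constant, and the intervals and limits on them cover counting error only. Symbols came from a gene name list (57754 of 58395 genes) or GENCODE, and promoters from RefSeq (GRCh38.p14), for 8 of the 10 receptors. No window was at hand for ERBB3, and receptor windows on chromosome 8, where FGFR1 lies, were left out.

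The test took the 13155 genes averaging 1 FPKM or more, on the log2(FPKM + 1) scale, in limma 3.58.1 (R 4.3.3, trend, robust prior, no replicate block), CD20+ minus CD20-, Benjamini-Hochberg adjusted over all of them. On that scale the fold of a low gene comes out too small. Deviations from the group means correlated at 0.675, 0.238 and 0.509 between same-numbered libraries, all above 0.1, and on that ground libraries were paired by number. CD20+ replicate 2 correlated better with CD20- replicate 3 (0.396), and CD20+ replicate 3 at 0.426 with CD20- replicate 2, so the pairing of these rests on the labels. No label says what a number marks, and the crossed pairing was not run. The correlations come from the same values as the blocked fit, so they are no separate support for its calls. The blocked fit, with the number as a term, is given where it changes a call. Mean FPKM of 1 gene was compared by exact permutation, two-sided. On simulated data of 13141 genes the fit without the block recovered 90% of genes changed by a log2 of 1, with 16 false calls, and the blocked fit 85%, with 28 false calls. The simulation gave all genes the same spread beyond counting, with no difference between replicate numbers or in mitochondrial share. The receptor changes were also smaller than a log2 of 1, so these shares do not give the power of the tests on the real libraries.

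The receptors, the lists and the filter were chosen with earlier results of these data known. The named genes are the receptors, MS4A1, and for each list the 2 highest in mean and up to 3 with the smallest p; not all are described. Alternatives covered pseudocount, filter, scaling, prior, block, voom and left-out libraries.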

Additional observations from a re-analysis of the deposited data

How the results depend on the processing

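Of the settings, voom with the block was chosen after seeing the data and the rest were planned; edgeR and DESeq2 were not run, since the values are FPKM. Without the block 1 gene and 0 receptors were called. The count of genes moved to 2 with a pseudocount of 10, 9 with quantile normalisation, 0 with no filter or with voom, 1382 with the FPKM total, 767 with the replicate block, 954 with the block and a filter of 10 FPKM, 3923 with the block and the FPKM total, and 1619 with voom and the block. Leaving out libraries or pairs gave 0 to 2141 genes, among them 322 without CD20+ replicate 1, 1813 without both libraries of replicate 1 and, with the block, 331 without both of replicate 3, and 0 to 1 receptors. The receptor count was 1 with the replicate block and 2 with voom and the block (PDGFRB, and ERBB2 at adjusted p = 0.0391); at the filter of 10 FPKM, 4 receptors were tested and 0 called. What causes these moves was not tested. The prior degrees of freedom were infinite for 93.4% of genes with the block at a filter of 10 FPKM. With the block they were infinite for 90.28% without replicate 1 and for 89.52% without replicate 3. With voom and the block their median was 82400. In these settings a gene's own spread had almost no weight, so their adjusted p rest on the spread of other genes. The block changed no call of a receptor other than PDGFRB in the limma fit. Under the FPKM total, with or without the block, the log2 change turned for EGFR (-0.21), ERBB2 (-0.0593), ERBB3 (-0.20), MET (-0.36), AXL (-0.15), IGF1R (-0.29), FGFR1 (-0.17), FGFR4 (-0.24), EPHB4 (-0.14), ROR2 (-0.11), IGFBP7 (-0.13), IGFBP6 (-0.0511), ADAM15 (-0.12), IGF2R (-0.0497) and SHC1 (-0.49, and -0.0394 without mitochondrially encoded genes in the total). The difference of mean FPKM turned likewise for EGFR (-2.22), ERBB2 (-0.371), ERBB3 (-0.662), MET (-1.55), AXL (-2.03), IGF1R (-3.04) and FGFR1 (-1.46). Leaving out libraries moved the log2 change of MET from -0.12 to 0.33 (with the block at -0.000893 without replicate 3), of PDGFRB from -0.0432 (without CD20+ replicate 1, which leaves a low group of 2 against 3) to 1.12, of IGFBP7 from -0.41 to 1.12, of SHC1 from -0.0868 to 0.0961 (with the block at -0.0588 without replicate 1), of GRB2 from -0.22 to 0.0681 (with the block at 0.0337 without replicate 3) and of MITF from -0.14 to 0.0392, and the difference of mean FPKM of MET from -0.173 to 1.03 and of PDGFRB from -0.778 to 4.65. The adjusted p of the other genes called with the block ranged over the settings from 7.06e-05 (MST1R), 0.00294 (PTK7), 0.000291 (GAS6), 3.91e-10 (PDGFB), 0.000109 (IGFBP5), 3.67e-17 (IGFBP3) and 0.00034 (PLAT) up to 1. Under the FPKM total with the block, GRB2 (adjusted p = 0.025), SHC1 (0.0417) and YAP1 (0.021) were also called, lower in CD20+. Of the 3923 genes called in that setting 90 were higher in CD20+, so these calls had the direction of nearly all calls there. With 3 libraries a group an exact test of 1 value cannot go below 0.1.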
